A study of Homo sapiens with 12 samples.

Results

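The E2F factors, the pocket proteins and the partners of the DREAM complex were examined in polyA RNA of HCT116 cells, an established human colorectal carcinoma line with intact p53. The 10 genes were taken by symbol, and each was found once among the 23195 genes listed. They are the activators E2F1, E2F2 and E2F3, the atypical repressors E2F7 and E2F8, the pocket proteins RBL1 (p107) and RBL2 (p130), the transcription factors MYBL2 (B-MYB) and FOXM1, and LIN54, a subunit of the MuvB core. Cells carried siControl, a control siRNA, or siRFX7, which targets the transcription factor RFX7, and were kept for 24 h in 10 µM Nutlin-3a, an inhibitor of the p53 ligase MDM2, or in its solvent DMSO. These factors give 4 groups of 3 libraries, and the labels do not say whether the libraries came from separate cultures. The siRNA sequences are not given in the labels, and every group shares the same cell line. The tables used here hold statistics per group, so no value per library is shown and no overlap of libraries can be read.

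E2F factors bind DNA with a DP partner and switch on genes for entry into S phase, and RB family pocket proteins hold them in check. When p53 raises the kinase inhibitor p21, RBL1 or RBL2 joins the MuvB core and E2F4 or E2F5 to form DREAM, which silences cell cycle genes. In cycling cells MuvB instead binds MYBL2 and then FOXM1 and drives genes of G2 and mitosis. E2F7 and E2F8 bind without a DP partner and repress E2F targets, and E2F7 is known as a gene that p53 can induce. Several of these regulators are themselves targets of E2F or DREAM.

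The promoters are shown because E2F letters stood near the starts of E2F1, E2F2 and RBL1, which fell with Nutlin-3a, and also of E2F3, which did not. Windows of 300 bases, from 250 before to 50 after a RefSeq gene start (GRCh38.p14), were matched by symbol for 8 of the 10 genes. E2F8 and FOXM1 had no window, so their promoters were not searched. They are printed 5′ to 3′ on the gene's strand. Capitals mark E2F sites (TTTGGCGC, TTTCGCGC, TTTCCCGC or TTTGCCGC) or the CHR element, the cell cycle genes homology region (TTTGAA or TTCGAA), on either strand, and no 2 matches shared a base. E2F1 and RBL1 are shown as genes that fell with Nutlin-3a, E2F3 as an activator that did not, and E2F7 as the repressor set against them.
E2F1, chr20:33686336-33686635, minus strand: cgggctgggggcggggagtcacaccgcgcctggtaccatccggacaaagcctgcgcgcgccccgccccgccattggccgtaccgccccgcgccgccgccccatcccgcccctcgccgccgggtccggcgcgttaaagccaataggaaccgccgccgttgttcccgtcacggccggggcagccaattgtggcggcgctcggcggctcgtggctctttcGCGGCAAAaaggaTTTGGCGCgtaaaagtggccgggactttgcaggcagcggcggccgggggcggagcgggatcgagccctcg
RBL1, chr20:37095948-37096247, minus strand: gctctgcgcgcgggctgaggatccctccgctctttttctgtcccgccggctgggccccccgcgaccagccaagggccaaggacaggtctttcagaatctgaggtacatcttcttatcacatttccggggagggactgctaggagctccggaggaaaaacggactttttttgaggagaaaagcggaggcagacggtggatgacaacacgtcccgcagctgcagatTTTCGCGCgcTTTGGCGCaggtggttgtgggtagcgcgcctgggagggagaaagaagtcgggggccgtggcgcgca
E2F3, chr6:20401629-20401928, plus strand: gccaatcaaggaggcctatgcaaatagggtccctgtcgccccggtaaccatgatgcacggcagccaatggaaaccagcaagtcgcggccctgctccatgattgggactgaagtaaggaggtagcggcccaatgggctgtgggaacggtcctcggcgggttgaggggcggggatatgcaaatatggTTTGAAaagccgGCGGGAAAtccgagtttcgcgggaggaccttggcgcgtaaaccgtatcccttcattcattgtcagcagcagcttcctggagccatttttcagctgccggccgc
E2F7, chr12:77065520-77065819, minus strand: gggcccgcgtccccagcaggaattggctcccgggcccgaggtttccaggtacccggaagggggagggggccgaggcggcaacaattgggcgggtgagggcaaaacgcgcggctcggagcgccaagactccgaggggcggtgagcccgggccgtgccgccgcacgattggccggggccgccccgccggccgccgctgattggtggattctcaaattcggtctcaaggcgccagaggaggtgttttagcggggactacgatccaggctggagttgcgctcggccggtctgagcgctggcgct

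An exact E2F site stood in the windows of 4 of the 8 genes, E2F1, E2F2, E2F3 and RBL1, against 3.30% of all 34943 promoter windows. MYBL2 and LIN54, which also fell with Nutlin-3a, had none, and neither did E2F7 and RBL2. E2F1 and RBL1 held 2 sites each, within 33 bases before the start. A CHR stood in the windows of 3 genes, E2F3, LIN54 and RBL2, against 16.4% of all windows. E2F3 therefore carried an E2F site and a CHR, 53 and 65 bases before its upstream start. The CHR of RBL2 lay 24 bases after the start. Some genes had 2 windows, so the gene counts and the shares of windows are unlike measures. The 8 genes had 11 windows, of which 4 held an E2F site and 4 a CHR. Of the windows with a CHR, 2 were LIN54 windows that shared the same match. The RFX motif (GTTGCCA or GTTGCTA) and a p53 element (2 half-sites of 10 bases with a spacer of up to 13) were in no window of the 8 genes, against 6.75% and 0.0286% of all windows. These are matches of letters and not measured binding, and the absence of a match says only that the letters are not in this window.

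The groups were first checked against their labels. The epithelial markers KRT8, KRT18, KRT19, EPCAM, CDH1 and CDX2 had mean normalized counts of 698 to 80338 in the authors' deposited table, and VIL1 had 8.0. The immune and endothelial markers PTPRC, CD3E and PECAM1 were not listed, CD14 stood at 2.05 and VWF at 13.5, and of the fibroblast markers COL1A1 stood at 441 while COL1A2 and DCN were at 1.42 and 1.15. In the authors' deposited tables RFX7 itself, the siRNA target, changed with siRFX7 by -2.35 (log2, standard error 0.10) under DMSO and by -2.14 (standard error 0.09) under Nutlin-3a. The p53 targets CDKN1A, which encodes p21, and MDM2 rose with Nutlin-3a in the authors' deposited tables, by 4.46 and 3.99 (log2) in siControl and by 3.53 and 3.30 in siRFX7. With siRFX7 in DMSO, CDKN1A was already higher by 1.29 in the authors' deposited table. Mean normalized counts summed over genes came to between 25915992 and 27407526 per group, computed from the authors' deposited tables.

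The Nutlin-3a comparison in siControl asks how these regulators respond to p53 activation. Of the 10 genes, 7 fell and none rose at a DESeq2 adjusted p below 0.05 in the authors' deposited table, beside 21.2% of all genes called lower and 22.0% called higher. None rose at an unadjusted p below 0.05 either. Their median log2 fold change was -3.0, against 0.02 over all genes. E2F1, E2F2, E2F8, RBL1, MYBL2, FOXM1 and LIN54 fell, while E2F3, E2F7 and RBL2 did not pass the test. Under siRFX7 the same 7 genes fell and E2F7 rose in the authors' deposited table, beside 19.7% of all genes lower and 21.7% higher, and the median was -2.64 against -0.02. Among the genes with that minimum mean, 3577 were lower and 4242 higher. In bulk RNA a smaller share of cells in S, G2 or M phase and less of an RNA per cell cannot be told apart, and this holds for each fall described here. Levels below are group means of normalized counts, recovered from the mean over all libraries and the fold changes, and they carry no error of their own.

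**Figure D1:**
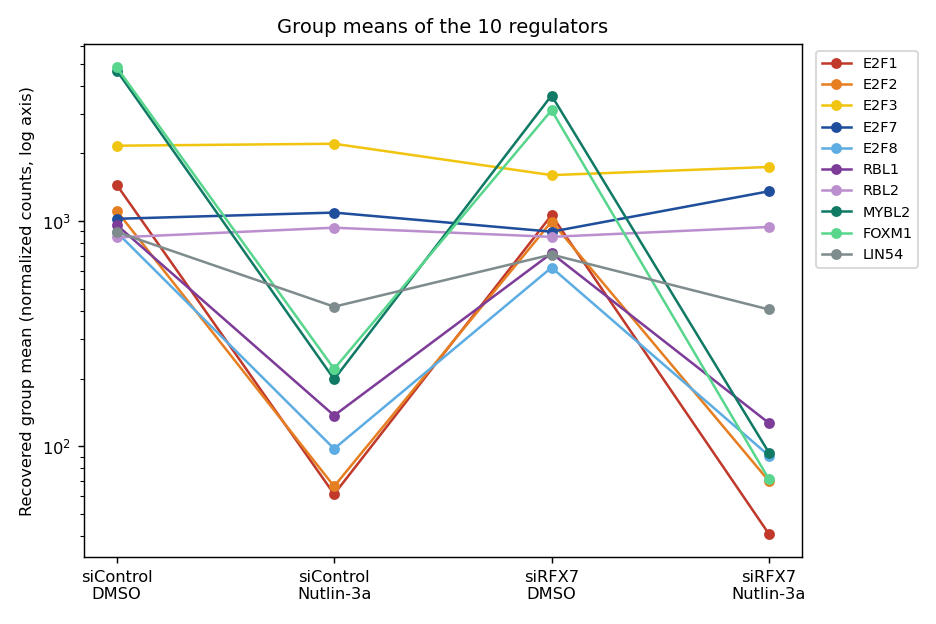
Recovered group means of the 10 regulators (normalized counts, log axis) in the 4 groups, each point 1 group mean computed from the authors' deposited tables, with lines joining the points of a gene. E2F3, E2F7 and RBL2 stay between 847 and 2207 in all groups, while E2F1, E2F2, E2F8, RBL1, MYBL2 and FOXM1 drop to 221 or less in both Nutlin-3a groups.

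Among the activators, E2F1 and E2F2 lost most of their RNA and E2F3 was not called changed. E2F1 (ENSG00000101412, GRCh38 chromosome 20 from 33675683 to 33686404, minus strand) drives S phase genes and its own promoter. Its recovered mean was 1450 normalized counts with DMSO and 61.3 with Nutlin-3a in siControl cells, and 1063 and 40.7 in the same order in siRFX7 cells. Both Nutlin-3a groups were far below both DMSO groups. The log2 fold change of E2F1 was -4.57 in siControl (standard error 0.16, DESeq2 adjusted p 4.95e-184) and -4.71 in siRFX7 (standard error 0.17, DESeq2 adjusted p 3.99e-158) in the authors' deposited tables. In siControl 4.22% of the DMSO level remained (95% interval 3.41% to 5.23%), and E2F1 ranked 96 from the lowest fold change among 23195 genes.

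E2F2 (ENSG00000007968, chromosome 1 from 23506430 to 23531220, minus strand), a second activator of S phase genes, had a mean of 1111 with DMSO and 66.4 with Nutlin-3a in siControl cells, and 996 and 70.0 in the same order in siRFX7 cells. Its level after Nutlin-3a was close under both siRNAs. On the log2 scale Nutlin-3a changed it by -4.06 (standard error 0.13, DESeq2 adjusted p 1.38e-211) in siControl and -3.83 (standard error 0.13, DESeq2 adjusted p 2.16e-194) in siRFX7 in the authors' deposited tables.

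E2F3 (ENSG00000112242, chromosome 6 from 20401906 to 20493715, plus strand) is the third activator and has starts for a long and a short isoform, which gene-level values do not separate. Its mean was 2163 with DMSO and 2207 with Nutlin-3a in siControl cells, and 1601 and 1740 in the same order in siRFX7 cells. The groups divided by siRNA and not by treatment. The log2 fold change with Nutlin-3a was 0.03 in siControl (95% interval -0.09 to 0.15, DESeq2 adjusted p 0.756) and 0.12 in siRFX7 (95% interval -0.003 to 0.24, DESeq2 adjusted p 0.117) in the authors' deposited tables. The siControl interval ran from 93.9% to 111% of the DMSO level, so of the 3 activators 2 were lost and E2F3 was not.

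The atypical repressors went apart in the same way. E2F7 (ENSG00000165891, chromosome 12 from 77021247 to 77065580, minus strand) had a mean of 1024 with DMSO and 1092 with Nutlin-3a in siControl cells, and 898 and 1358 in the same order in siRFX7 cells. The siRFX7 Nutlin-3a group was the highest of the 4. In siControl the log2 fold change was 0.09 (standard error 0.10, 95% interval -0.10 to 0.28, DESeq2 adjusted p 0.492) in the authors' deposited table. The interval ran from 93.5% to 122% of the DMSO level, so a rise of E2F7, the gene named as p53-induced, was not called in siControl at 24 h. In the authors' deposited table for siRFX7, E2F7 rose by 0.60 (log2, standard error 0.10, DESeq2 adjusted p 3.61e-09), a 1.51-fold rise.

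E2F8 (ENSG00000129173, chromosome 11 from 19224063 to 19241620, minus strand), the paralog of E2F7, had a mean of 893 with DMSO and 97.5 with Nutlin-3a in siControl cells, and 622 and 90.8 in the same order in siRFX7 cells. Both Nutlin-3a means lay below both DMSO means. Its log2 fold change was -3.20 (standard error 0.14, DESeq2 adjusted p 8.54e-116) in siControl and -2.78 (standard error 0.14, DESeq2 adjusted p 3.64e-84) in siRFX7 in the authors' deposited tables.

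**Figure D2:**
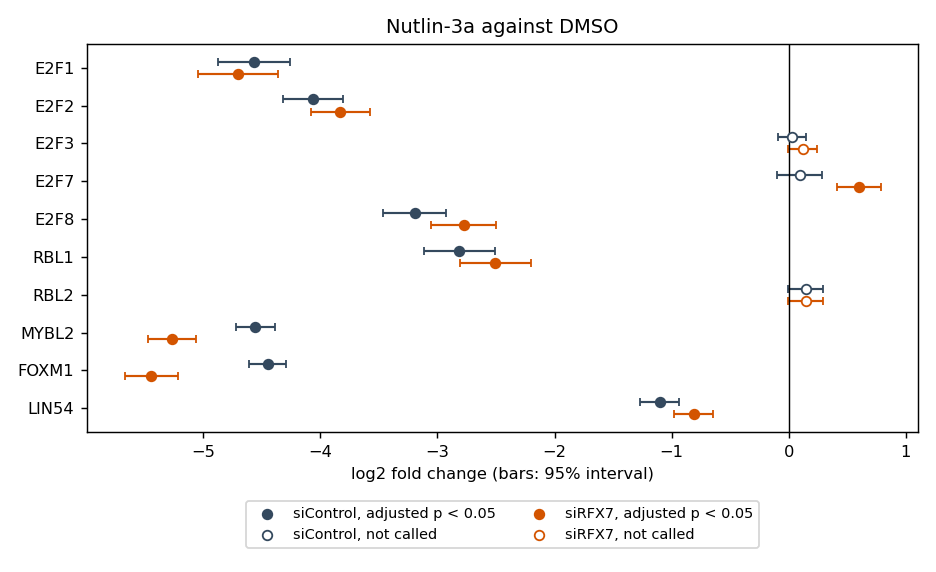
Log2 fold change of Nutlin-3a against DMSO for the 10 regulators in siControl and siRFX7 cells, from the authors' deposited tables, with bars for the 95% interval and filled points for a DESeq2 adjusted p below 0.05. E2F3 and RBL2 lie near 0 under both siRNAs, E2F7 near 0 in siControl and at 0.60 in siRFX7, and the other 7 genes between -5.45 and -0.81.

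Set side by side in siControl, E2F1 and E2F2 fell while E2F7 was called neither higher nor lower. The log2 fold change of E2F7 exceeded that of E2F1 by 4.66 in siControl and 5.30 in siRFX7, with errors of 0.18 and 0.20 if the errors of the 2 genes are taken as independent, computed from the authors' deposited tables. Against E2F2 the gaps were 4.16 (error 0.16) and 4.43 (error 0.16). Against E2F3 they were 0.06 (error 0.11) in siControl and 0.48 (error 0.11) in siRFX7, so the siControl gap was smaller than its error. No test was made on these gaps, since the genes were chosen with results known.

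Levels per kilobase of exon put genes on a rough common scale. The length is that of all annotated exons of a gene merged, and not of the transcripts expressed. On this scale the ratio of E2F7 to E2F1 went from 0.280 in siControl DMSO to 7.08 in siControl Nutlin-3a. In siRFX7 this ratio went from 0.335 to 13.2, computed from the authors' deposited tables. E2F3 made up 34.9% of the summed level of the 3 activators in siControl DMSO and 92.1% in siControl Nutlin-3a, with 33.8% and 92.0% in siRFX7. E2F7 made up 43.0% of the summed level of E2F7 and E2F8 in siControl DMSO and 88.0% in siControl Nutlin-3a, with 48.7% and 90.8% in siRFX7. The 2 families thus became almost wholly E2F3 and E2F7 RNA with Nutlin-3a. The summed repressors remained below the summed activators in all 4 groups, at ratios of 0.315, 0.424, 0.319 and 0.648 for DMSO and Nutlin-3a in siControl and then for DMSO and Nutlin-3a in siRFX7.

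**Figure D3:**
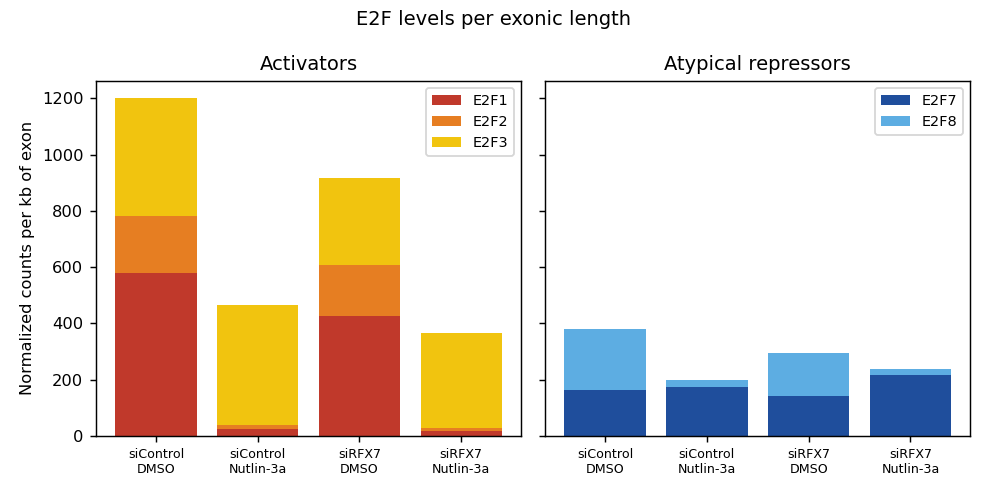
Stacked recovered group means per kilobase of exon (normalized counts per kb, computed from the authors' deposited tables with GENCODE 29 exon lengths) of the activators and of the atypical repressors in the 4 groups; group means have no error of their own. E2F3 is 92.1% of the activator bar in siControl Nutlin-3a, and E2F7 is 88.0% of the repressor bar.

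The pocket proteins showed the same division. RBL1 (ENSG00000080839, chromosome 20 from 36996349 to 37095995, minus strand), whose product p107 serves mainly in cycling cells, had a mean of 962 with DMSO and 137 with Nutlin-3a in siControl cells, and 720 and 127 in the same order in siRFX7 cells. The Nutlin-3a means stood well below the DMSO means. Its log2 fold change was -2.81 (standard error 0.15, DESeq2 adjusted p 3.51e-74) in siControl and -2.51 (standard error 0.15, DESeq2 adjusted p 1.24e-57) in siRFX7 in the authors' deposited tables.

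RBL2 (ENSG00000103479, chromosome 16 from 53433977 to 53491649, plus strand) encodes p130, the main pocket protein of DREAM in arrested cells. Its mean was 847 with DMSO and 935 with Nutlin-3a in siControl cells, and 852 and 942 in the same order in siRFX7 cells, the narrowest range of the 10 genes. The log2 fold change was 0.14 (95% interval -0.01 to 0.29, DESeq2 adjusted p 0.120) in siControl and 0.15 (95% interval -0.003 to 0.29, DESeq2 adjusted p 0.115) in siRFX7 in the authors' deposited tables. Per kilobase of exon, RBL2 stood at 0.716 times RBL1 in siControl DMSO and at 5.55 times RBL1 in siControl Nutlin-3a, computed from the authors' deposited tables. In siRFX7 the same ratio went from 0.962 to 6.05. RBL2 overlaps AKTIP on the other strand, and the strand setting of the counts is not given in the sources used here, so its values are uncertain to that extent.

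MYBL2, FOXM1 and LIN54 all fell, the first 2 by far more. MYBL2 (ENSG00000101057, chromosome 20 from 43667019 to 43716496, plus strand) binds MuvB in S phase and had the highest level per kilobase of the 10 genes in siControl DMSO. Its mean was 4668 with DMSO and 199 with Nutlin-3a in siControl cells, and 3615 and 93.6 in the same order in siRFX7 cells. The lowest mean was that of siRFX7 cells with Nutlin-3a. The log2 fold change of MYBL2 was -4.56 (standard error 0.08) in siControl and -5.27 (standard error 0.10) in siRFX7, with DESeq2 adjusted p-values listed as 0 in the authors' deposited tables.

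FOXM1 (ENSG00000111206, chromosome 12 from 2857681 to 2877155, minus strand) is a forkhead factor of G2 and mitotic genes. Its mean was 4823 with DMSO and 221 with Nutlin-3a in siControl cells, and 3109 and 71.4 in the same order in siRFX7 cells. Its lowest mean, too, was that of siRFX7 cells with Nutlin-3a. With Nutlin-3a FOXM1 changed by a log2 of -4.45 (standard error 0.08) in siControl and -5.45 (standard error 0.12) in siRFX7, with DESeq2 adjusted p-values listed as 0 in the authors' deposited tables. FOXM1 overlaps RHNO1 and ITFG2 on the other strand, so its values are uncertain where reads of these genes could be shared.

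LIN54 (ENSG00000189308, chromosome 4 from 82909973 to 83012926, minus strand) is the MuvB subunit that contacts the CHR in DNA. Its mean was 896 with DMSO and 417 with Nutlin-3a in siControl cells, and 710 and 405 in the same order in siRFX7 cells. LIN54 had the smallest fall of the 7. Its change on the log2 scale was -1.10 (standard error 0.08, DESeq2 adjusted p 2.17e-38) in siControl and -0.81 (standard error 0.08, DESeq2 adjusted p 1.70e-20) in siRFX7 in the authors' deposited tables. It overlaps THAP9 on the other strand, with the same uncertainty.

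The order of the levels changed with Nutlin-3a. Per kilobase of exon, computed from the authors' deposited tables, the siControl DMSO levels ran from MYBL2 at 1681 and FOXM1 at 984 through E2F1 at 579 and E2F3 at 419 to E2F8, E2F2, E2F7, RBL1, LIN54 and RBL2, which lay between 216 and 116. In siControl Nutlin-3a the order began with E2F3 at 427, E2F7 at 173 and RBL2 at 128, the 3 genes that were not called, and ended with E2F2 at 12.2. With no error for a level, neighbours in this order cannot be separated.

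Other genes of the pathway, from lists of roles, moved as follows in the Nutlin-3a comparison in siControl. Of 6 other E2F, DP and RB genes, 2 rose and 3 fell in the authors' deposited table: the DP partner TFDP2 rose by 0.88 and RB1 by 0.22, while TFDP1 fell by 0.92, E2F6 fell by 0.26 and the DREAM factor E2F4 fell by 0.22. E2F5, the other E2F of DREAM, had a log2 fold change of 0.13 and was not called. Of the 4 other MuvB subunits, LIN9, LIN52 and RBBP4 fell by 1.75, 1.31 and 0.71 in the authors' deposited table, and LIN37, at a mean normalized count of only 27.1, was not called. CDK2, CDK6, E2F4 and E2F5 were named after their values were seen.

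Of 15 upstream kinases, cyclins and inhibitors 14 were listed, of which 3 rose and 11 fell in the authors' deposited table, with a median of -0.68. CDKN1A, CCND1 (cyclin D1) and CDK6 rose, by 4.46, 1.61 and 1.04, and the largest falls were those of cyclin E2 gene CCNE2 at -5.48 and of the CDK4/6 inhibitor gene CDKN2C at -4.79 in the authors' deposited table. CCND2 was not listed. Of 25 G1/S genes bound by E2F, all 25 were called lower in siControl, with a median of -2.99 from MCM10 at -5.43 and RRM2 at -5.03 up to TYMS at -0.89 and PCNA at -0.34 in the authors' deposited table. Of 25 G2/M genes driven by MYBL2-MuvB and FOXM1, all 25 were called lower, with a median of -4.29, from CKAP2L at -5.84 and NEK2 at -5.35 up to ECT2 at -2.39 and CKS2 at -1.59 in the authors' deposited table. E2F1, E2F2, E2F8, RBL1, MYBL2 and FOXM1 fell within the range of both lists. LIN54 at -1.10 lay within the G1/S range only, and E2F3, E2F7 and RBL2 lay within neither.

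Under siRFX7 nearly all genes of these target lists were again called lower with Nutlin-3a, and the G2/M median was deeper than in siControl. The G1/S list had 24 of 25 genes lower and a median of -3.04, with PCNA at 0.05 and not called, in the authors' deposited table. The G2/M list had 25 of 25 lower and a median of -5.27 in the authors' deposited table. Of the other E2F, DP and RB genes, TFDP2 and RB1 rose and TFDP1 fell, and E2F4, E2F5 and E2F6 were not called.

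The siRFX7 comparison in DMSO asks which regulators differ between siRFX7 and siControl cells without Nutlin-3a. Of the 10 genes, 7 fell and none rose in the authors' deposited table, beside 15.5% of all genes lower and 13.5% higher, with a median of -0.39 against -0.003 over all genes. None rose at an unadjusted p below 0.05. The falls were small: with a minimum absolute log2 fold change of 0.58 only FOXM1 remained, and with Bonferroni adjustment 3 genes did. FOXM1 stood at -0.63 (log2, standard error 0.06, DESeq2 adjusted p 1.47e-23) in the authors' deposited table. E2F3 had -0.43 (standard error 0.06, DESeq2 adjusted p 7.45e-11) and MYBL2 -0.37 (standard error 0.06, DESeq2 adjusted p 1.50e-08) in the authors' deposited table. E2F8, E2F1, RBL1 and LIN54 fell by between 0.33 and 0.52 in the authors' deposited table. E2F7 at -0.19 (95% interval -0.38 to 0.00003, DESeq2 adjusted p 0.136), E2F2 at -0.16 (DESeq2 adjusted p 0.155) and RBL2 at 0.01 (95% interval -0.14 to 0.16, DESeq2 adjusted p 0.955) were not called in the authors' deposited table. Both p53 controls were higher in the authors' deposited table for this comparison, CDKN1A by 1.29 and MDM2 by 0.49 (DESeq2 adjusted p 1.19e-12), and their part in these falls was not tested.

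**Figure D4:**
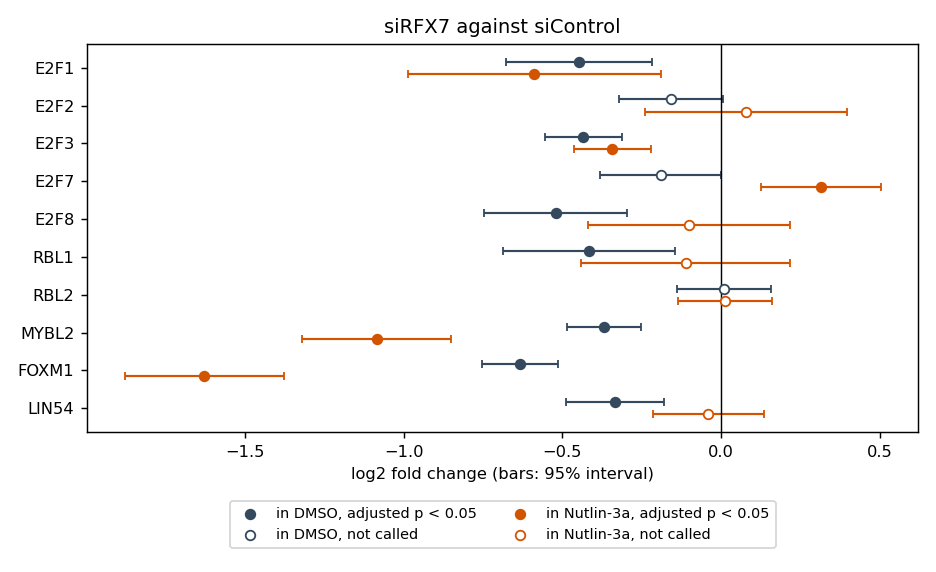
Log2 fold change of siRFX7 against siControl for the 10 regulators in DMSO and in Nutlin-3a, from the authors' deposited tables, with bars for the 95% interval and filled points for a DESeq2 adjusted p below 0.05. FOXM1 and MYBL2 lie at -1.63 and -1.08 in Nutlin-3a, and E2F7 is the 1 gene above 0 that was called, at 0.31 in Nutlin-3a.

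In Nutlin-3a the siRFX7 comparison divided the genes otherwise. FOXM1, MYBL2, E2F1 and E2F3 fell, E2F7 rose, and 5 genes were not called in the authors' deposited table, beside 13.6% of all genes lower and 15.0% higher. The median was -0.11 against 0.002 over all genes. CDKN1A was higher by 0.35 and MDM2 lower by a log2 of -0.21 in the same authors' deposited table, and their part in these changes was not tested. The siRFX7 and Nutlin-3a comparisons share groups, so they are not independent of each other. FOXM1 stood at -1.63 (log2, standard error 0.13, DESeq2 adjusted p 9.56e-35), so that 32.4% of its siControl level remained (95% interval 27.2% to 38.5%), in the authors' deposited table. MYBL2 had -1.08 (standard error 0.12, DESeq2 adjusted p 7.50e-18), with 47.1% remaining (95% interval 40.1% to 55.5%), in the authors' deposited table.

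E2F3, the activator that Nutlin-3a left in place, was lower by siRFX7 here too, at -0.34 (standard error 0.06, DESeq2 adjusted p 4.64e-07) in the authors' deposited table, a call lost with a minimum absolute log2 fold change of 0.58. E2F1 had -0.59 (standard error 0.20, DESeq2 adjusted p 0.0167) at recovered means of 61.3 and 40.7 counts in the authors' deposited table, and was not called at a threshold of 0.01 or with Bonferroni adjustment. E2F7 was higher by 0.31 (standard error 0.10, DESeq2 adjusted p 0.00548), a 1.24-fold difference, in the authors' deposited table, and this call was lost with Bonferroni adjustment and with the same minimum. RBL2 at 0.01 (95% interval -0.14 to 0.16) and LIN54 at -0.04 (95% interval -0.22 to 0.13) were not called, nor were E2F2 at 0.08, E2F8 at -0.10 and RBL1 at -0.11 in the authors' deposited table. For E2F2, E2F8 and RBL1, whose means were under 140 counts in these 2 groups, the 95% intervals reached 0.22 to 0.40 upward and -0.24 to -0.44 downward.

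The difference of the Nutlin-3a log2 fold changes, siRFX7 less siControl, asks whether the response itself changed with the knockdown. By a two-sided z test with Benjamini-Hochberg adjustment over 23195 genes it was called for 3 of the 10 genes, 2 below 0 and 1 above 0, beside 2.92% of all genes below 0 and 3.28% above. Over all genes this split of calls was 760 above and 677 below 0. It turned to 583 above and 792 below when groups were scaled to equal totals. FOXM1 had a difference of -0.99 (standard error 0.14, z test with Benjamini-Hochberg adjusted p 3.85e-10), so that its fall was 43.6-fold in siRFX7 and 21.9-fold in siControl. MYBL2 had -0.72 (standard error 0.13, adjusted p 6.77e-06), with falls of 38.6-fold and 23.5-fold. E2F7 had 0.50 (standard error 0.14, adjusted p 0.00632) and was the gene called above 0. That call was lost with Bonferroni adjustment and with the minimum of 0.58.

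With a t distribution on 8 degrees of freedom in place of the normal, FOXM1 was still called while MYBL2 had an adjusted p of 0.0533 and E2F7 of 0.178. The z test takes the standard errors as known, and the calls of MYBL2 and E2F7 rest on that. The other 7 genes were not called, with differences from -0.14 for E2F1 to 0.42 for E2F8 (95% interval 0.03 to 0.81, adjusted p 0.250). The lowest interval bound among these 7 was -0.60 for E2F1 and the highest was 0.81 for E2F8.

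The target lists were set beside this by the same z test. Of the 25 G2/M genes, 18 were called below 0, KIF20A alone was called above 0, at 1.1, and 6 were not called. The list median was -0.999. KIF20A was singled out after its value was seen. Of the 25 G1/S genes, 4 were called below 0 (MCM2, MCM7, MCM10 and RRM2, from -1.57 to -0.36). A further 5 were called above 0 (MCM3, PCNA, POLA2, UNG and GMNN, from 0.31 to 0.63), and 16 were not called. The list median was 0.005, and the 9 called genes were named after their values were seen. Over all genes the median was 0.003. The t distribution on 8 degrees of freedom was applied to the lists after these values were seen. With it the G2/M list had 14 genes called below 0 and 1 above. The G1/S list then had 3 called below and 2 above, as MCM2, MCM3, PCNA and POLA2 were no longer called. The difference between the 2 lists was not tested. Among the other pathway genes, RB1 at 0.39, LIN52 at 0.46, TFDP1 at 0.22 and CDK2 at 0.38 were called above 0. TFDP2 at -0.34, CCND1 at -0.78 and CDKN1A at -0.93 were called below 0. Of these 7, CCND1 and CDKN1A were still called with the t distribution, while RB1, LIN52, TFDP1, TFDP2 and CDK2 were not (adjusted p 0.0982 to 0.249). The call of RB1 was also lost with groups scaled to equal totals.

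**Figure D5:**
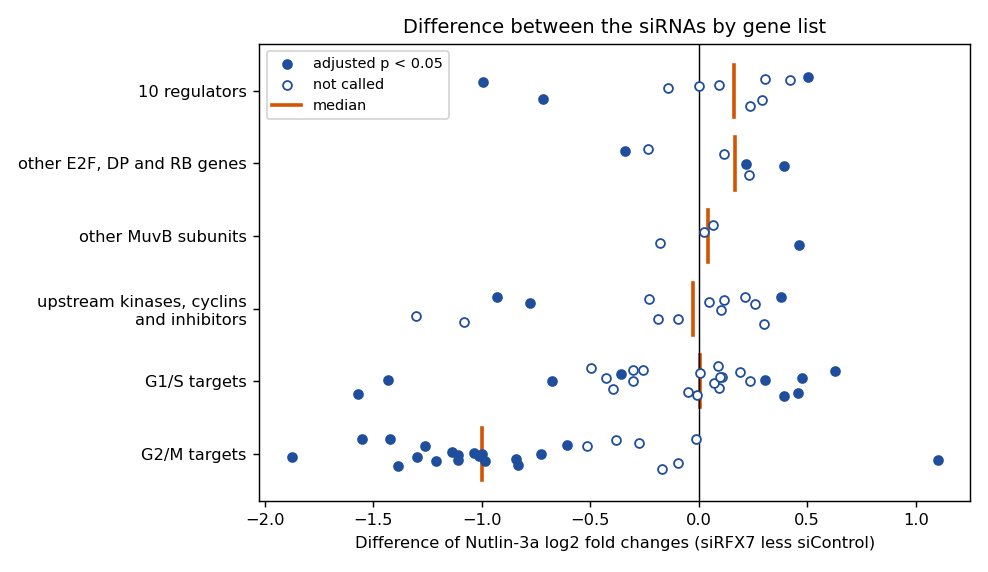
Difference of the Nutlin-3a log2 fold changes (siRFX7 less siControl) for the 10 regulators and the other genes of the pathway by list, with 1 point a gene (vertical scatter only for display), filled where the z test adjusted p is below 0.05, and bars for list medians. The G2/M targets lie to the left with a median of -0.999 and KIF20A at 1.1, while the G1/S targets lie around 0.

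With siRFX7 in Nutlin-3a, 24 of the 25 G2/M genes were lower and KIF20A was higher in the authors' deposited table. Their median was -1.20, beside 13.6% of all genes listed being lower and 15.0% higher. FOXM1 and MYBL2 fell in the same comparison, and their part in these changes was not tested. The G1/S list had 16 lower and 5 higher genes there, with a median of -0.45. In DMSO the G2/M list had 20 genes lower and none higher with a median of -0.29, and the G1/S list had 18 lower and 2 higher, with a median of -0.34 in the authors' deposited table. Over all genes listed for DMSO, 15.5% were lower and 13.5% higher.

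Genes with the most similar pattern were sought among the 12463 genes whose mean normalized count reached 100, by the Euclidean distance between the centred log2 group means of the 4 groups, computed from the authors' deposited tables. Among those nearest to E2F7 were CNNM4, ZNF385B and FKBP14, at distances of 0.06 to 0.08. Those nearest to RBL2 were the processed pseudogene MYL12BP1, CNPPD1, INTS10 and C6orf89, at 0.01 to 0.02. Those nearest to E2F1 were KIF4A, CDK1, ORC6 and ESPL1, at 0.18 to 0.24, and with Nutlin-3a in siControl they had log2 fold changes from -4.42 to -4.28 in the authors' deposited table. With only 4 group means per gene these distances describe likeness and carry no test.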

How the data were processed

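PolyA RNA was sequenced from 12 libraries in 4 groups of 3, made from 500 ng of total RNA. The submitters' processing notes name Trimmomatic 0.39, cutadapt 2.10, featureCounts 1.6.5, DESeq2 1.20.0 and build hg38. The aligner and the strand setting are not given in the sources used here. The authors deposited 4 tables of DESeq2 results. Mean normalized counts are a signal, counts divided by size factors and averaged over libraries, per the file headers. Fold changes and their standard errors are log2 values, per the file headers. Each table also gives a score, the ratio of fold change to standard error, and p-values with their adjusted form, per the file headers. No values per library were analysed here, so the depth of single libraries is unknown.

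The 4 tables held the same mean normalized counts, and their log2 fold changes closed to within 1.27e-14 with the siRFX7 tables read as siRFX7 over siControl. Group means were solved from the mean normalized count and 3 fold changes, with equal group sizes. The difference of responses was tested with a z test (Python 3.11.15, scipy 1.17.1). Its calculation was checked on simulated data with noise drawn from the same standard errors. Such data cannot show whether those errors are right. Intervals of 95% are 1.96 standard errors either way, and rest on the authors' model. Exon lengths and gene positions came from GENCODE 29 (GRCh38) and promoters from RefSeq. Genes were called at an adjusted p below 0.05. Members and lists were chosen with earlier results of these data known. The genes named were all 10 members, RFX7, the 2 highest and 2 lowest of each list in the Nutlin-3a comparison in siControl, genes that departed from their list, and the 4 closest in pattern to E2F7, RBL2 and E2F1. Some genes that this rule names are not reported here. P-values measure the spread between these libraries, which may be technical. Alternatives covered thresholds, adjustment, scaling, centring, a filter at a mean of 100 and the reference distribution. Leaving out replicates could not be run on tables without values per library.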

Additional observations from a re-analysis of the deposited data

Results flagged for a closer look

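A z test called a difference in the Nutlin-3a response (log2, siRFX7 less siControl) for the genes given here. Among the 10 regulators these were E2F7 at 0.50, MYBL2 at -0.72 and FOXM1 at -0.99. With a t distribution on 8 degrees of freedom FOXM1 was still called, while MYBL2 (adjusted p 0.0533) and E2F7 (adjusted p 0.178) were not. The E2F7 call was also lost with Bonferroni adjustment and with a minimum absolute log2 fold change of 0.58.

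Among the E2F, DP, RB and MuvB partners, the differences were 0.22 for TFDP1, -0.34 for TFDP2, 0.39 for RB1 and 0.46 for LIN52. Upstream, they were -0.78 for CCND1, 0.38 for CDK2 and -0.93 for CDKN1A, and MDM2 had -0.69. In the G1/S list, differences called below 0 were those of MCM2 at -0.36, MCM7 at -0.68, MCM10 at -1.57 and RRM2 at -1.43. Those above 0 were MCM3 at 0.31, PCNA at 0.39, POLA2 at 0.48, UNG at 0.46 and GMNN at 0.63. Of the G2/M genes named, NEK2 had -1.88, CKAP2L -1.42 and CKS2 -0.99, and KIF20A had 1.1. Of the genes in this paragraph, TFDP1, TFDP2, RB1, LIN52, CDK2, MCM2, MCM3, PCNA, POLA2 and CKAP2L lost their calls with the t distribution.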

How the results depend on the processing

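Of 310 values of single members under the alternatives, 288 kept their direction and their side of the threshold. A further 20 kept the direction but lost the call, and 2 reversed. Only equal total counts and the median of genes at 0 shift the values, so no other setting could reverse a direction. Under each of these 2 settings 49 values stayed the same and 1 reversed. The reversals were those of the RBL2 difference between responses, which was -0.0280 with equal total counts and -0.0264 with the median of genes at 0, and which was not called in any setting. The counts of members called with Nutlin-3a stayed at 7 lower in siControl and at 7 lower and 1 higher in siRFX7 in every alternative run. With a minimum absolute log2 fold change of 0.58, members called lower by siRFX7 in DMSO numbered 1. Those called higher by siRFX7 in Nutlin-3a numbered 0, and those called with a difference of responses above 0 numbered 0. With Bonferroni adjustment these counts were 3, 0 and 0. Members called lower by siRFX7 in Nutlin-3a numbered 3 in place of 4 under both settings and at an adjusted p below 0.01. With a t distribution on 8 degrees of freedom, 0 members were called with a difference above 0 and 1 below 0, against 131 and 143 of all genes. At an adjusted p below 0.01, 2 member values lost their call, and with only genes of a mean of at least 100 none did. Lost calls follow from the stricter rules. No paired analysis was possible because the tables hold no values per library, and for the same reason no replicate was left out. Depth limits E2F1, E2F2, E2F8, RBL1, MYBL2 and FOXM1 in Nutlin-3a, where group means were 40.7 to 221 counts.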
